A study of Rattus norvegicus with 20 samples.

Results

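The genes described here are a set of 42 that dividing cells need, 21 that act in mitosis and 21 that act in DNA replication. A member was read only where a probe set of the array carried exactly its symbol, which gave 39 of the 42 genes, 20 of the mitosis and 19 of the replication genes, out of 14217 genes with such a probe set. Tpx2 and Cdc6 were not named on any probe set, and Rrm2 was named only on probe sets shared with a second gene, so those 3 are not described. The 39 genes had 54 probe sets, and 9 genes had more than 1. The brightest probe set on average stood for each gene, and all 39 of these passed the filter on low signals.

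Femur RNA of rats aged 4 weeks was hybridized to 20 whole-genome Affymetrix arrays, 1 for each animal, with 5 animals in each of 4 strains. NP and P are inbred strains that came from selective breeding for low (alcohol-nonpreferring) and high (alcohol-preferring) alcohol intake, and the study looked in them for genes that go with skeletal traits. A quantitative trait locus (QTL) for alcohol preference had been mapped on chromosome 4, where other rat strains have QTLs for bone traits. NP.P rats carry the P segment of that region on the NP background, and P.NP rats carry the NP segment on the P background; each congenic strain is 1 line made by repeated backcrossing, so all its animals share whatever donor DNA that line kept. No animal was treated, and the study used male rats. The sample labels name the proximal femur and the methods the femur. The paper describes no removal of marrow and states that RNA of the whole femur comes from several cell types. Markers of blood-forming cells gave signal: all 14 erythroid markers with a probe set passed the filter, as did all 8 osteoblast and all 13 growth plate cartilage markers. The values are MAS5 signals, linear intensities that are comparable between animals for 1 probe set but not between probe sets. Median signals of the arrays lay between 291.9 and 322.3, the lowest correlation between any pair of arrays was 0.9193, and no array was left out.

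A dividing cell copies its genome in S phase and separates the copies in mitosis. Replication starts when the MCM helicase is loaded at origins and fired, after which primase, polymerase, the sliding clamp and its loader, and the enzymes of nucleotide synthesis carry the fork. Mitosis is driven by Cdk1 with its cyclins and by the Aurora and polo kinases, is held by the spindle checkpoint, and ends when the anaphase promoting complex marks cyclin B for destruction. In young bone these genes are known to be used by blood-forming precursors of the marrow and by chondrocytes of the growth plate.

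The mitosis and replication genes are known to be switched on at different times by different promoter elements, and both sets of elements can be read in the sequences. RefSeq promoters (GRCr8, 250 bases before to 50 after the annotated start) were available for 35 of the 39 genes; Aurkb, Ccna2, Mcm4 and Ube2c had none. Letters searched on both strands were TTTGAA for the cell cycle homology region (CHR), CCAAT for the NF-Y motif, and TTTCCCGC, TTTGGCGC, TTTGCCGC and TTTCGCGC for E2F. The 6 stretches shown are a selection of members with matches and not a ranking by difference. Matches are in capitals and the rest in lower case, 5′ to 3′ on the gene's strand. Each stretch ends at or before the start used for the promoter sequence. For Ccnb2, Cdk1, Mcm7 and Mcm2 the annotated gene span begins further upstream than that start, so part of the stretch lies inside it. Ccnb2 is at chr8:79981686-79981882 (minus strand), Cdk1 at chr20:19265073-19265292 (plus strand) and Cdca3 at chr4:159320972-159321140 (plus strand), for the mitosis genes. Mcm5 is at chr19:13488590-13488812 (plus strand), Mcm7 at chr12:22163209-22163421 (minus strand) and Mcm2 at chr4:122918095-122918319 (minus strand), for the replication genes.
Ccnb2: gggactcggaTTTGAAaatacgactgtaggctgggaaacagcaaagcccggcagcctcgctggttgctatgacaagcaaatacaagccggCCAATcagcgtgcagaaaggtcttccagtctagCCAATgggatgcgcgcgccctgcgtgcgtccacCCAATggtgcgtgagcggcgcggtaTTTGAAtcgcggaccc
Cdk1: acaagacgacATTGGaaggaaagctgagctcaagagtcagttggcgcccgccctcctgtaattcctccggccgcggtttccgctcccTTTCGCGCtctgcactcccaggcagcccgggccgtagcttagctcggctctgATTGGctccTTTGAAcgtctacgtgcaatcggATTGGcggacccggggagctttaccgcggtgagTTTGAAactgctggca
Cdca3: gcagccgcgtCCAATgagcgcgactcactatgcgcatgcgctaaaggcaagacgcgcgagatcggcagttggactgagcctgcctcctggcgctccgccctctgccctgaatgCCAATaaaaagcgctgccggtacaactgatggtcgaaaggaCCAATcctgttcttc
Mcm5: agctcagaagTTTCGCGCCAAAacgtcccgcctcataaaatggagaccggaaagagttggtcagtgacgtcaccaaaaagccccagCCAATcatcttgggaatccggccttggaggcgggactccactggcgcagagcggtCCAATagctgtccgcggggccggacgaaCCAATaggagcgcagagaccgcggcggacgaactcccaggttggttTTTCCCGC
Mcm7: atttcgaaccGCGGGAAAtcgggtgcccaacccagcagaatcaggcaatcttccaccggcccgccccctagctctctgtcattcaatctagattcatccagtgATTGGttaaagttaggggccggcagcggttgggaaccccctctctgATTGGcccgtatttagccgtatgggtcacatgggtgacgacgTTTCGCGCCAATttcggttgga
Mcm2: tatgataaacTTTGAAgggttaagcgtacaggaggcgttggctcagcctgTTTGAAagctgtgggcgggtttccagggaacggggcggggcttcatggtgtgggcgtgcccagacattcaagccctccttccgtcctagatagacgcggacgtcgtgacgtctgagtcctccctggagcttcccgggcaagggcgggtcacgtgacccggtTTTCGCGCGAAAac

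Ccnb2, the cyclin B2 gene, held 2 CHR and 3 NF-Y matches. Cdk1, its kinase partner, held 2 CHR and 3 NF-Y matches and, alone among the mitosis genes searched, an E2F match. Cdca3 held 3 NF-Y matches and neither a CHR nor an E2F match. In Mcm5 and Mcm7, subunits of the replicative helicase, 3 NF-Y matches stood with 3 and 2 E2F matches. Mcm2 was the only replication gene with a CHR match, of which it held 2, beside 2 E2F matches and no NF-Y match. The E2F matches on opposite strands overlap in Mcm5 and in Mcm2, and an E2F match overlaps an NF-Y match in Mcm7.

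Across the set, CHR matches were in 10 of 17 mitosis promoters (58.8%) and 1 of 18 replication promoters (5.56%), beside 18.1% of all 27457 promoters of the same length. E2F matches went the other way, with 1 of 17 mitosis (5.88%) and 10 of 18 replication promoters (55.6%), beside 2.25% of all promoters. NF-Y matches were in 14 of 17 mitosis promoters (82.4%), 10 of 18 replication promoters (55.6%) and 37.7% of all. A CHR and an NF-Y match stood together in 9 mitosis promoters, in 0 replication promoters and in 7.25% of all promoters. A match is a description of the letters and not evidence of a working site.

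**Figure D1:**
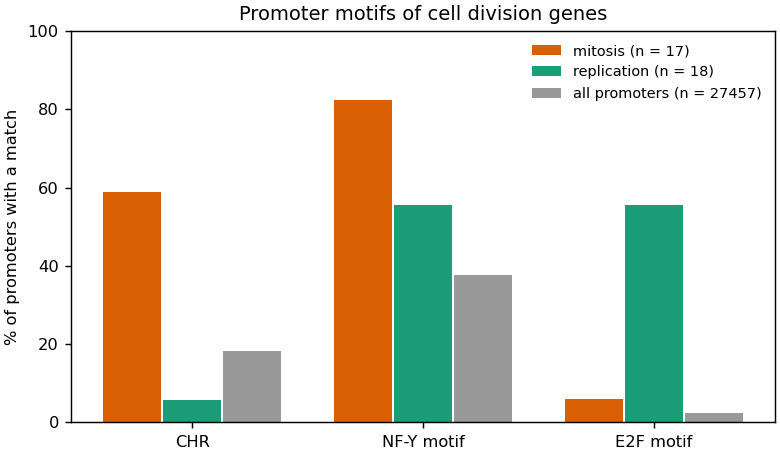
Share of promoters, in percent, that held at least 1 match to the CHR, the NF-Y motif or the E2F motif, for 17 mitosis genes, 18 replication genes and all 27457 RefSeq rat promoters. CHR matches were in 58.8% of the mitosis and 5.56% of the replication promoters, and E2F matches in 5.88% and 55.6%.

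The mitosis and the replication genes gave the same order of strains. The mean of the centred log2 signals over the 20 mitosis genes was 0.06 ± 0.08 (SD, n = 5) for NP and 0.15 ± 0.03 for NP.P rats, against −0.15 ± 0.05 for P.NP and −0.06 ± 0.09 for P rats. Over the 19 replication genes it was 0.03 ± 0.09 for NP and 0.17 ± 0.04 for NP.P rats, against −0.14 ± 0.04 for P.NP and −0.06 ± 0.07 for P rats. NP.P and P.NP rats did not overlap in either class, whereas NP and P rats did. The difference between the classes, mitosis minus replication, averaged 0.03 ± 0.03 for NP and −0.01 ± 0.04 for NP.P rats, and −0.01 ± 0.03 for P.NP and −0.01 ± 0.04 for P rats, so its strain means lay within the spread between animals. In a bulk sample such as whole femur, fewer dividing cells and less of these RNAs in each cell cannot be told apart.

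**Figure D2:**
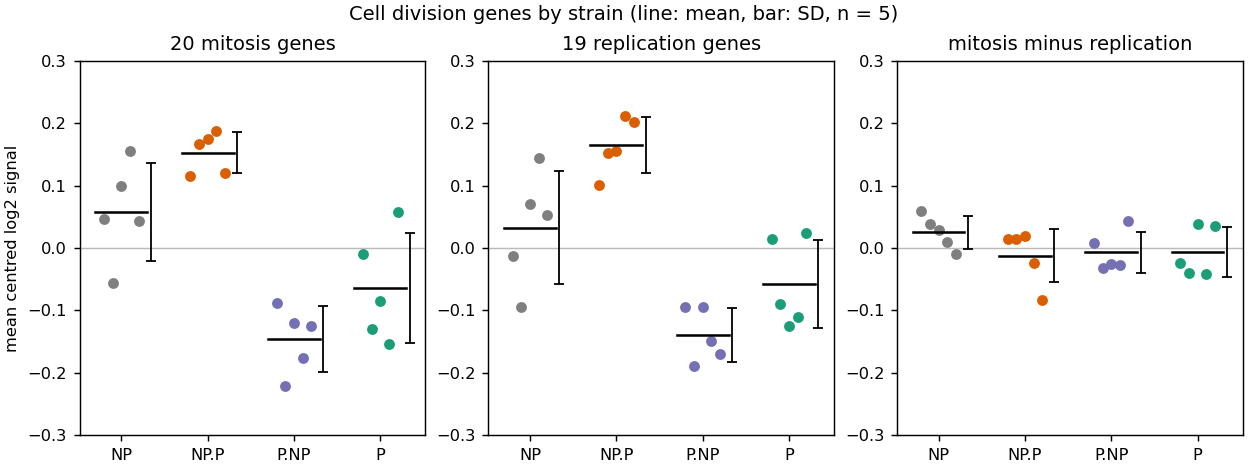
Mean centred log2 signal in each animal over the 20 mitosis genes, the 19 replication genes, and the difference between the classes, by strain; points are animals, lines the mean and bars the SD of 5. In both classes all 5 NP.P rats lay above all 5 P.NP rats, and the difference between the classes was near 0 in every strain.

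Gene by gene, NP.P had the highest strain mean for 33 of the 39 genes, where 25.4% of all 18625 probe sets tested had theirs in NP.P, and P.NP had the lowest for 33, beside 24.9% of all. The exceptions included Top2a, whose highest mean was in NP rats. In the F test over the 4 strains 25 of the 39 genes passed at a false discovery rate of 10% (an adjusted p under 0.1, the threshold for every call here), 13 mitosis and 12 replication genes, where 18.2% of all probe sets passed (limma over all probe sets). The count fell to 19 without NP.P replicate 2.

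The background was compared next, as the 10 rats with the P background (P and P.NP) minus the 10 with the NP background (NP and NP.P). On the P background 27 genes were lower and 0 higher, 13 of 20 mitosis and 14 of 19 replication genes, where 11.3% of all probe sets were called lower and 11.1% higher, 22.5% together. The fitted difference was below 0 for 37 genes, all but Bub1 and Bub1b, beside 46.1% of all probe sets. Its median was −0.18 log2 over the 39 genes, −0.22 over the mitosis and −0.17 over the replication genes, and 0.02 over all probe sets. The differences were small for most genes, and for 38 of the 39 the signals of the backgrounds overlapped.

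**Figure D3:**
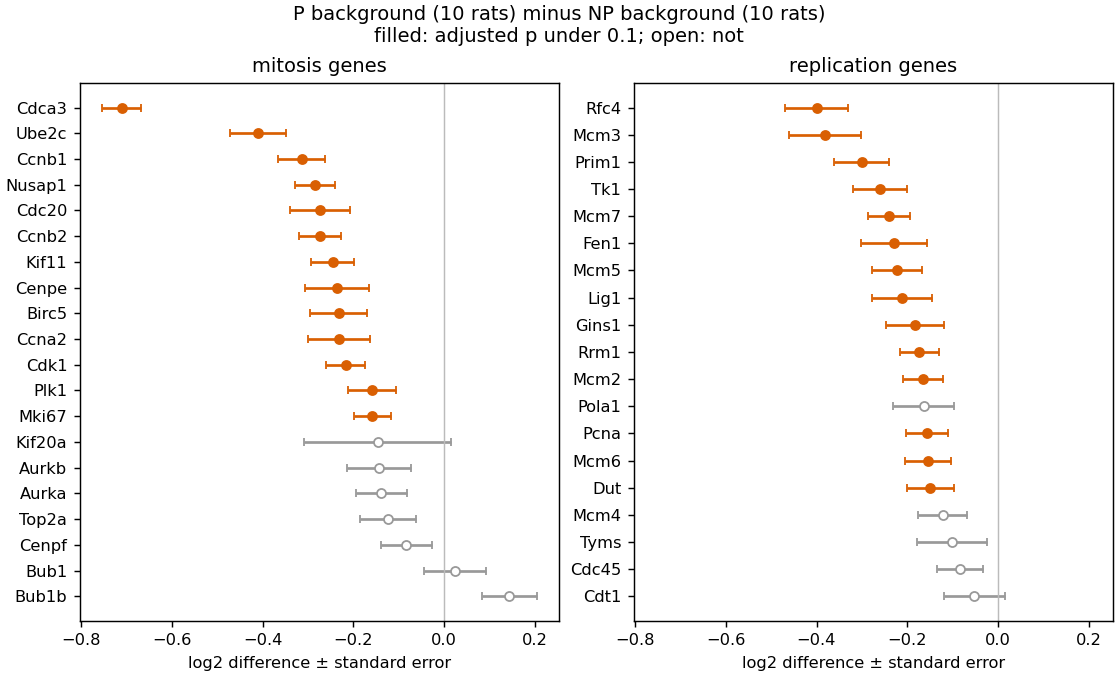
Log2 difference of the 10 P background rats minus the 10 NP background rats for each gene, with its standard error; filled points passed at an adjusted p under 0.1 in limma and open points did not. Of the mitosis genes 13 passed and of the replication genes 14, all of them below 0, and Cdca3 at −0.71 lay farthest from 0.

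The gene with the largest difference was Cdca3, which encodes a trigger of mitotic entry that helps to degrade the Cdk1 inhibitor Wee1. The signals of Cdca3 were 11419.6, 10602, 11343, 12093 and 12061 in the NP rats and 12696, 12585, 12716, 13085 and 12384 in the NP.P rats, and 7542, 6221, 7427, 6834 and 7072 in the P.NP rats and 8267, 7640.1, 7411, 7544 and 8025 in the P rats. All 10 signals on the P background, at most 8267, lay below all 10 on the NP background, at least 10602, which was so for 0.929% of all probe sets and for no other of the 39 genes. The background difference was −0.71 (standard error 0.04, adjusted p = 8.27e-10), a fold of 0.611. Cdca3 lies on chromosome 4 beyond Ppp4r2, the last gene of the QTL region as taken here, and its difference had nearly the same size with either segment, −0.71 (standard error 0.06) for P minus NP.P and −0.71 (standard error 0.06) for P.NP minus NP.

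Ube2c, the ubiquitin-conjugating enzyme of the anaphase promoting complex, came next among the mitosis genes. Ube2c gave 11596, 13437, 14595, 16275 and 15156 on the NP arrays and 16275, 17266, 14991, 14798 and 18462 on the NP.P arrays, against 12396, 10544, 11488, 10763 and 11899 on the P.NP arrays and 11319, 10575, 11493, 11702 and 12134 on the P arrays. The P.NP and P rats held almost the same level, and the lowest NP rat fell among them. The background difference was −0.41 (standard error 0.06, adjusted p = 1.23e-04). Cdc20, which activates the same complex, was lower by a log2 difference of −0.27 (standard error 0.07, adjusted p = 8.69e-03) at its brightest probe set, with 5 probe sets in all that ranged from −0.05 to −1.02, of which 2 passed. The checkpoint kinases that hold the complex back did not pass: Bub1 was at 0.02 (standard error 0.07) and Bub1b at 0.14 (standard error 0.06, adjusted p = 0.114), the only members above 0.

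All 4 genes of the cyclin and Cdk1 group were lower on the P background. Ccnb2 signals in the 5 animals were 11175, 11339, 12715, 13082 and 11567 for NP, 12966, 13698, 13631, 13982 and 13719 for NP.P, 10568, 9946, 10622, 9530.0 and 9856 for P.NP and 11250.0, 10447, 10501, 10445 and 12608 for P. For Ccnb2 the NP.P rats lay above all rats with the P background, while NP and P rats overlapped, and the background difference was −0.27 (standard error 0.05, adjusted p = 4.98e-04). Here and for the genes below, such separations of a strain from others were not counted over all probe sets. Most genes given with all signals were chosen by a small adjusted p, which favours such separation. The signals of Ccnb1 were 4743, 4642, 4765, 5213 and 5220.3 in the NP rats and 5300.5, 5579, 5860.0, 5751 and 5967 in the NP.P rats, and 4234, 4024, 4004, 4298 and 4428 in the P.NP rats and 4279.7, 4169, 4349.8, 3716 and 5147 in the P rats. Cyclin B1 showed the same pattern, with every NP.P rat above every P background rat and a difference of −0.31 (standard error 0.05, adjusted p = 3.71e-04); its second probe set gave −0.54 (standard error 0.07). Cdk1 gave 8413, 8396, 8885, 9797 and 9526 on the NP arrays and 9443, 9916, 10258, 9638 and 9802 on the NP.P arrays, against 8162, 7887, 7986, 7753 and 8138 on the P.NP arrays and 8474, 7699, 8189, 7649.8 and 8938 on the P arrays. Cdk1, the kinase that these cyclins activate, had a difference of −0.22 (standard error 0.04, adjusted p = 1.87e-03). Again all NP.P rats exceeded all rats with the P background, and the NP rats overlapped with both. Ccna2, cyclin A2, which acts in S phase as well, was at −0.23 (standard error 0.07, adjusted p = 0.0252).

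Among the spindle genes Nusap1, Kif11 and Cenpe were lower on the P background, and Cenpf and Kif20a did not pass. Nusap1 signals in the 5 animals were 6972, 6812, 7742, 7467 and 7632 for NP, 8105, 7359.9, 8146, 7538 and 7390.2 for NP.P, 5802, 5408, 6074, 5389 and 6072 for P.NP and 6602, 6106, 6708, 6594 and 7078 for P. Nusap1, a microtubule-bundling protein of the spindle, was highest in the NP background strains with 1 overlapping P rat, and the 5 P.NP rats lay below the other 15; the difference was −0.29 (standard error 0.04, adjusted p = 1.81e-04). The signals of Kif11 were 3155, 2739, 3239, 3272 and 2886 in the NP rats and 3414, 3215, 3243, 3178 and 2946 in the NP.P rats, and 2918, 2477, 2661, 2505 and 2489 in the P.NP rats and 2678, 2669, 2503, 2700.1 and 2777 in the P rats. Kif11, the kinesin that pushes spindle poles apart, differed by −0.25 (standard error 0.05, adjusted p = 1.48e-03), with 2 P background rats inside the NP background range. Its other probe set gave −0.25 (standard error 0.08, adjusted p = 0.0354). Cenpe, a kinetochore motor, was at −0.24 (standard error 0.07), whereas Cenpf, a kinetochore protein, was at −0.08 (standard error 0.06, adjusted p = 0.341). Kif20a, a kinesin of cytokinesis, was at −0.15 with a standard error of 0.16, the least precise value of the set.

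Of the mitotic kinases and the chromosomal passenger Birc5 (survivin), Plk1 and Birc5 were lower on the P background, at −0.16 (standard error 0.05) and −0.23 (standard error 0.06). The Aurora kinases Aurka and Aurkb were both at −0.14 and did not pass (adjusted p = 0.102 and 0.176). Mki67, the nuclear antigen used to count cycling cells, and Top2a, the topoisomerase that disentangles sister chromosomes, were read as general markers. Mki67 gave 17406, 18487, 21198, 19299 and 18729 on the NP arrays and 21775, 22796, 21692, 22869 and 22041 on the NP.P arrays, against 17982, 16932, 17585, 17974 and 17938 on the P.NP arrays and 19909, 18157, 19965, 19340.1 and 18543 on the P arrays. In Mki67 the NP.P rats stood above the other 15 animals, and the NP and P rats had the same level. Its background difference was −0.16 (standard error 0.04, adjusted p = 0.0116). Top2a signals in the 5 animals were 9650.0, 7754, 8565, 9042 and 10836 for NP, 8905, 8461, 9229, 9876 and 8987 for NP.P, 8209, 6838, 7939.6, 8283 and 8574 for P.NP and 9150.0, 7915, 8709.8, 8402 and 9841 for P. For Top2a all 4 strains overlapped, and the difference of −0.12 (standard error 0.06, adjusted p = 0.195) did not pass.

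Of the replication genes, those of the helicase come first. The MCM complex is a ring of Mcm2 to Mcm7 that unwinds DNA at the fork, and 5 of the 6 subunits were lower on the P background. The signals of Mcm3 were 3688, 3142, 3566, 4119 and 4175 in the NP rats and 4096, 3636, 4599.7, 4373 and 4941 in the NP.P rats, and 2389.8, 3314, 3373, 3462 and 2824 in the P.NP rats and 3543, 2708, 3227, 3033 and 3051 in the P rats. Mcm3 had the largest difference of the ring, −0.38 (standard error 0.08, adjusted p = 2.72e-03), with all NP.P rats above all rats with the P background and the NP rats overlapping with both. Mcm7 gave 9866, 11476, 11400.4, 12107 and 10672 on the NP arrays and 11138, 11885, 11994, 11850.3 and 13185 on the NP.P arrays, against 9837, 9158, 9366, 9565 and 9541 on the P.NP arrays and 10532, 9729, 9327, 9909 and 10795 on the P arrays. Mcm7 differed by −0.24 (standard error 0.05, adjusted p = 1.50e-03), with every NP.P rat above every rat with the P background. Mcm5 was at −0.22, Mcm6 at −0.15 and Mcm4, which did not pass, at −0.12 (standard error 0.05, adjusted p = 0.134).

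Mcm2 is the only one of the 39 genes inside the chromosome 4 QTL region (from Arf5 to Ppp4r2 in the RefSeq gene order of GRCr8), so its segment contrasts were read as well. Mcm2 signals in the 5 animals were 6110.2, 5568, 6669, 6586 and 6710.3 for NP, 6864, 6825, 6956, 6786 and 7128 for NP.P, 6349, 5854, 5861, 5459.9 and 5459 for P.NP and 5865, 6353, 5647, 5993 and 6137 for P. The 5 NP.P rats lay above the other 15 animals, a separation not counted over all probe sets, and the remaining strains overlapped. The background difference was −0.17 (standard error 0.05, adjusted p = 0.0170). Mcm2 passed the limma F test over the 4 strains, at adjusted p = 0.0404 over all probe sets and 0.0295 within the region. That test takes in the background as well as the segment. Exchange of the segment gave 0.13 (standard error 0.06, adjusted p = 0.394) for NP.P minus NP and −0.05 (standard error 0.06, adjusted p = 0.938) for P.NP minus P in limma, neither of which passed, also when adjusted within the 384 probe sets of the region (adjusted p = 0.258 and 0.811). Over the 6 genes of the ring, Mcm2 among them, NP.P minus NP ran from 0.09 to 0.21, and 0 passed. Whether the place of Mcm2 in the segment has a part in its value was not tested.

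Of the genes for primer synthesis, the clamp and lagging strand work, 5 of 6 were lower on the P background. The signals of Rfc4 were 5125, 5333, 5959.8, 7175 and 5778 in the NP rats and 6250.1, 6831, 5864, 7026 and 6774 in the NP.P rats, and 4701, 4328, 5011, 3839.9 and 3788 in the P.NP rats and 4987, 4681, 5262, 4833 and 5748 in the P rats. Rfc4, a subunit of the clamp loader, had the largest difference of the replication genes, −0.40 (standard error 0.07, adjusted p = 5.50e-04), with the NP and P rats overlapping and all NP.P rats above all rats with the P background. Prim1 gave 5539, 6315, 7179, 7479 and 7127 on the NP arrays and 7319, 8349, 7683, 8171 and 7783 on the NP.P arrays, against 5503, 5434, 6175, 5433 and 6114 on the P.NP arrays and 6345, 5103, 6032, 6252 and 6637 on the P arrays. Prim1, the catalytic primase subunit, differed by −0.30 (standard error 0.06, adjusted p = 2.27e-03), and the 5 NP.P rats again exceeded all rats with the P background. Pcna signals in the 5 animals were 29545, 36754, 33852, 38224 and 33248 for NP, 36998, 41344, 38899, 36801 and 40768 for NP.P, 32643, 31099, 33138, 31441 and 29838 for P.NP and 34021, 33534, 33441, 34058 and 34365 for P. Pcna, the sliding clamp, differed by −0.16 (standard error 0.05, adjusted p = 0.0290); its NP rats spanned the whole range of the P background. Fen1 and Lig1, which trim and seal Okazaki fragments, were at −0.23 and −0.21 (the second probe set of Lig1 was at −0.02, adjusted p = 0.917), while Pola1, the catalytic subunit of the polymerase that works with the primase, was at −0.16 and did not pass (adjusted p = 0.104).

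In nucleotide supply Rrm1, Tk1 and Dut were lower on the P background, and Tyms, thymidylate synthase, did not pass at −0.10 (standard error 0.08). Rrm1, the large subunit of ribonucleotide reductase, was at −0.17 (standard error 0.04, adjusted p = 9.63e-03). Tk1, thymidine kinase, was at −0.26 (standard error 0.06, adjusted p = 4.85e-03), and its other probe sets gave −0.40, which passed, and −0.12, which did not. Dut, the dUTPase that keeps uracil out of DNA, had probe sets that disagreed, −0.15 (standard error 0.05, adjusted p = 0.0611) at the brighter and 0.45 (standard error 0.12, adjusted p = 0.0165) at the dimmer. For origin firing, Gins1 was lower at −0.18 (standard error 0.06, adjusted p = 0.0600), and Cdt1, the licensing factor, and Cdc45, a partner of the helicase, did not pass at −0.05 and −0.08.

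**Figure D4:**
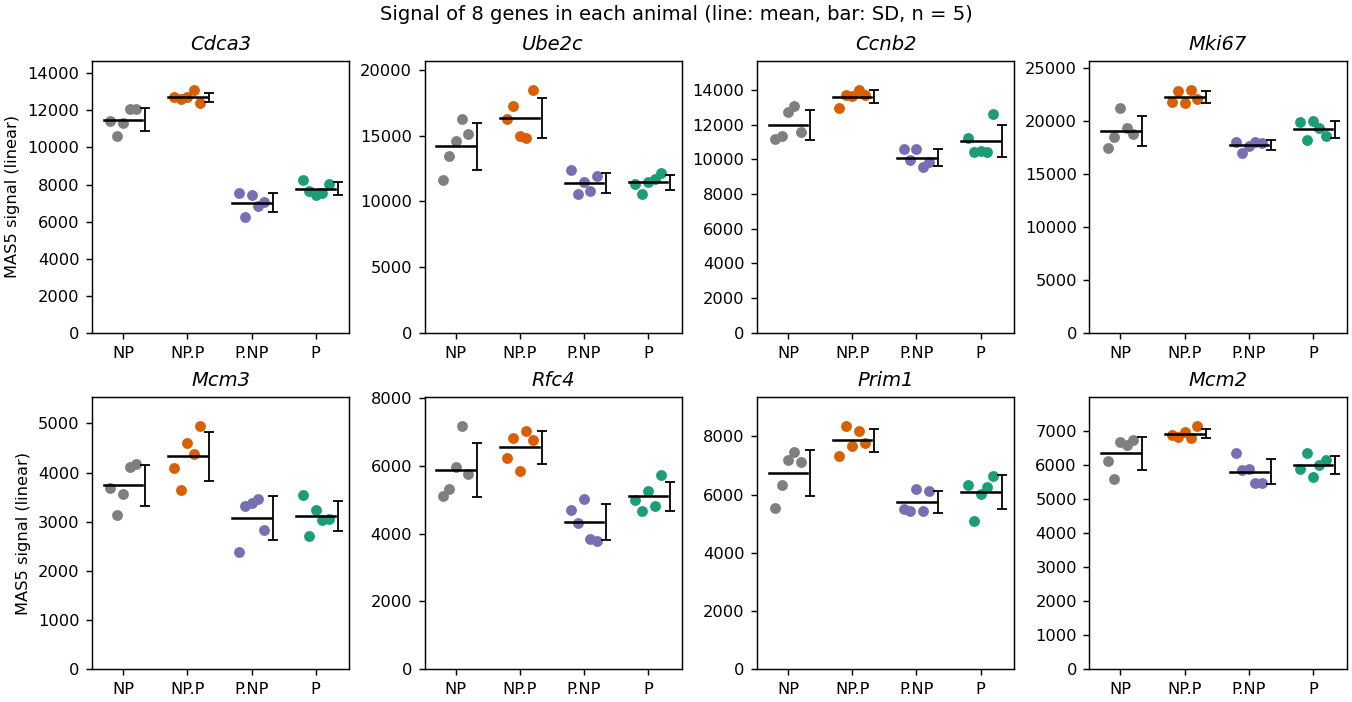
MAS5 signal (linear axis from 0) of 8 genes in each animal by strain, with the mean and SD of 5 animals. Only for Cdca3 did all 10 P background signals, at most 8267, lie below all 10 NP background signals, at least 10602; the NP.P rats were the highest strain on average in each of the 8 genes.

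The background was also compared with each segment held constant. For P minus NP.P 19 genes were lower, 10 mitosis and 9 replication genes (7.25% of all probe sets), and for P.NP minus NP 10 were lower, 8 mitosis and 2 replication genes (5.39% of all), with medians of −0.21 and −0.20. The difference between these differences is the segment by background interaction, which was called for 0 of the 39 genes (0.317% of all probe sets), with 0 at an unadjusted p under 0.05 in limma (9.71% of all); the methods' t-test was not run for it.

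Fewer genes passed between the inbred parents. For P minus NP only Cdca3 (−0.56, standard error 0.06, adjusted p = 7.08e-06) and Ube2c (−0.30, standard error 0.09, adjusted p = 0.0636) passed, both lower in P rats, where 2.94% of all probe sets were lower. In either direction 5.36% of all probe sets were called, near the 5.13% of the 39 genes. None of the replication genes passed, with 3 of 19 at an unadjusted p under 0.05 in limma, beside 16% of all probe sets. The median was −0.09 over the 39 genes with 32 of them below 0, where 49.1% of all probe sets were below 0. The call of Cdca3 held in all 29 alternatives tried, and that of Ube2c was lost in 11 of 29, among them without any 1 of NP replicates 3, 4 and 5 or of P replicates 1 to 4.

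Exchange of the chromosome 4 segment gave 1 call on the NP background and 0 on the P background. For NP.P minus NP, the P segment on the NP background, 33 genes were above 0 (46.8% of all probe sets were) with a median of 0.13, where all probe sets had a median of −0.01. Only Mki67 passed (0.23, standard error 0.06, adjusted p = 0.0696 in limma), where 0.816% of all probe sets were higher. In either direction 2.3% of all probe sets were called, near the 2.56% of these genes. An unadjusted p under 0.05 in limma was reached by 12 genes (13.1% of all), among them Ccnb1 (0.21), Pcna (0.19), Ccnb2 (0.19), Rrm1 (0.17) and Prim1 (0.23). The call of Mki67 was lost in 11 of 30 alternatives, among them without NP replicate 1 or 5 or NP.P replicate 2, 4 or 5. For P.NP minus P, the NP segment on the P background, 0 genes passed in limma (0.231% of all probe sets) and 4 had an unadjusted p under 0.05 (7.7% of all), namely Nusap1, Cdc45, Rfc4 and Cdca3, with values from −0.15 to −0.24. The methods' t-test called 0 of all 18625 probe sets, so its 0 for these genes carries no information about them. Of the 39 genes 8 had an unadjusted p under 0.05 by that test. That count cannot be judged, because the share of all probe sets was not counted. The median was −0.08, with 34 genes below 0 beside 49.8% of all probe sets.

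With both backgrounds pooled, the rats with the P segment minus those with the NP segment, Mki67 was again the only call (0.17, standard error 0.04, adjusted p = 0.0752). Of all probe sets 0.478% were called higher and 0.886% in either direction, beside 2.56% of the 39 genes. The median was 0.10 over the 39 genes, 37 above 0, and −0.01 over all probe sets, of which 47.2% were above 0. This contrast was added after the data were seen, and its call was lost in 17 of 27 alternatives, 13 of them the loss of 1 array. All of these comparisons share arrays, so their values are not independent.

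Within strains the classes moved together. After each strain's mean was removed, the mitosis and replication means of the 20 animals correlated with Pearson r = 0.85 and Spearman rho = 0.86, and with r = 0.77 without the 2 animals farthest from the median; both come from the same RNA and array. Single pairs were looser, with a median r of 0.30 over 190 pairs of mitosis genes, 0.26 over 171 pairs of replication genes and 0.28 over the 380 mixed pairs. Rrm1 (0.84) and Ccnb2 (0.82) followed the other members of their class most closely, and Cenpf (−0.13) and Cdc20 (−0.02) least. Of genes outside the set, Hnrnpc (0.92), Rad51c (0.88) and Cenpt (0.86) were among the 4 most like the mitosis mean, and Rad51c (0.88), Sp110 (0.87) and Macroh2a1 (0.84) led for the replication mean, over 20 animals.

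The background differences were then set beside the promoter matches. Their median was −0.17 for the 11 genes with a CHR match and −0.20 for the 24 without, −0.18 for the 11 with an E2F match and −0.20 for the 24 without, and −0.22 for the 24 with an NF-Y match and −0.15 for the 11 without. Cdca3, with NF-Y matches alone, and Rfc4, with no match to any of the searched motifs, had the largest differences of their classes among the genes with a promoter sequence.

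Other genes of the same processes were counted from wider lists. On the P background 11.3% of all probe sets were lower and 11.1% higher. Of 33 further mitosis genes 14 were lower there and 1, Knl1, a kinetochore scaffold, was higher (0.30, standard error 0.08, adjusted p = 0.0157). The lower ones included Dlgap5 (−0.40), Hmmr (−0.27), Mad2l1 (−0.35) and Kif22 (−0.26). Of 28 further replication genes 11 were lower, led by Pold2, a subunit of polymerase delta (−0.39, standard error 0.05, adjusted p = 9.46e-06), and Orc6 of the origin recognition complex (−0.42), and 2 were higher, Uhrf1, which directs maintenance methylation (1.33, standard error 0.15, adjusted p = 4.60e-06), and Slbp (0.27). G1 cyclins, kinases and E2F factors gave 4 lower of 14, namely E2f2, E2f4, Ccne1 and Cdk2, with a median of −0.03, beside the same 11.3% of all probe sets. E2f2 was also higher in NP.P than in NP rats (0.38, adjusted p = 0.0321). Of 5 inhibitors of the cyclin-dependent kinases tested, Cdkn1a (−0.48, standard error 0.09, adjusted p = 1.60e-03) and Cdkn2d (−0.21) were lower on the P background.

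Of the marker lists of other cells, the erythroid list followed the strains as the cell division genes did. Of 14 erythroid markers 13 were lower on the P background, where 11.3% of all probe sets were lower and 11.1% higher; their median was −0.24, and all 14 were above 0 in NP.P minus NP. Their summed signal ranged from 208838 to 243306 for NP and 252143 to 273888 for NP.P rats, against 192211 to 212516 for P.NP and 207272 to 236165 for P rats, with Klf1 (−0.49), Rhag (−0.60) and Rhd (−0.44) among the lower. B lymphoid markers went the other way, with all 5 above 0 and 3 of them higher on the P background, and 3 lower and all 5 below 0 in NP.P minus NP. Their strain mean was low only in NP.P rats, −0.32, against 0.10 for NP, 0.07 for P.NP and 0.14 for P rats. For P minus NP.P 4 of the 5 were higher (6.88% of all probe sets). For P.NP minus NP 0 were called (9.58% of all), with a median of −0.003.

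Of 13 growth plate cartilage markers 0 were called in limma, also at an unadjusted p under 0.05, but 12 were below 0 on the P background with a median of −0.19. The cartilage mean of P replicate 2 stood far below the others, at −1.57, with a summed signal of 70935.9 where the other 4 P rats had 148589 to 197739. The means of those other 4 P rats, −0.12 to 0.42, lay within the −0.51 to 0.42 of the NP background rats. The cartilage median of −0.19 includes the low array and was not computed without it. For P.NP minus NP, which leaves out the P rats, 9 of the 13 markers were above 0, with a median of 0.02. For P minus NP.P, which includes the low array, 11 were below 0, with a median of −0.44. Without P replicate 2, 29 cell division genes were called on the background, with medians of −0.21 for mitosis and −0.18 for replication genes. Of 6 granulocyte markers Lcn2 alone was called (−3.79), with a list median of −0.16. Of 6 megakaryocyte markers 3 were lower and 1 higher, of 7 macrophage markers 3 lower and 1 higher, of 8 osteoblast markers 2 higher and of 9 skeletal muscle markers 1 higher. Every marker of these lists that had a probe set passed the filter on low signals. Only 6 of the 12 listed granulocyte precursor markers had one, with Mpo, Elane, Prtn3 and Ctsg among those missing. Of the 13 listed B lymphoid markers 5 had one. The part of these cells in the differences of the cell division genes was not tested. An erythroid covariate was fitted, but it follows the strains and cannot separate erythroid content from strain.

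**Figure D5:**
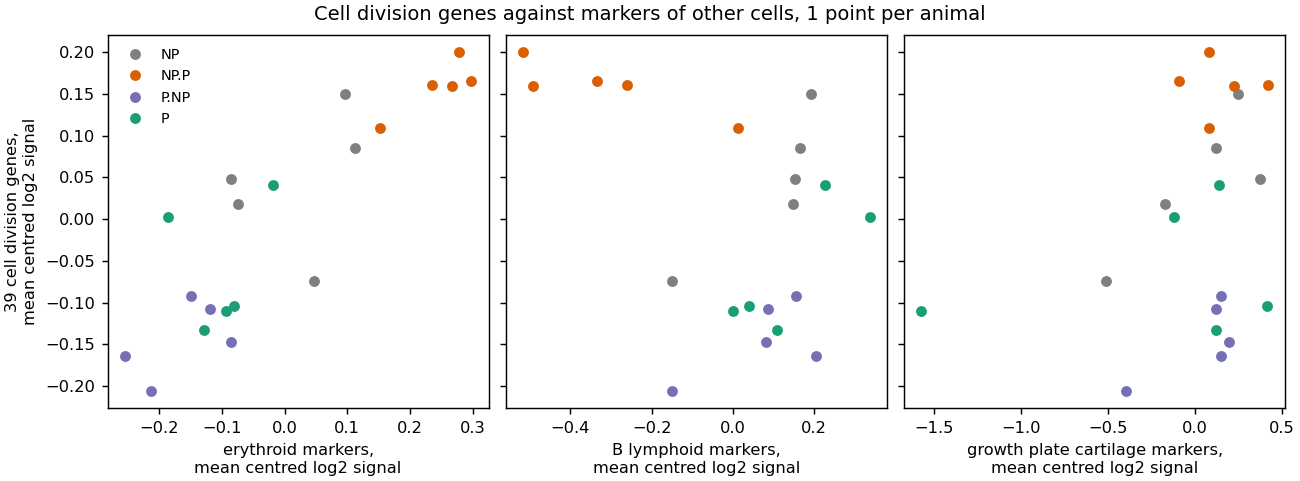
Mean centred log2 signal of the 39 cell division genes in each animal against the mean of the erythroid, B lymphoid and growth plate cartilage markers, coloured by strain. The 5 NP.P rats had the highest erythroid means, 4 of them had the lowest B lymphoid means, and the cartilage mean of P replicate 2, at −1.57, stands apart.

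When the mean of the erythroid markers of each array was added to the model, a choice made with the data in view, the background calls went from 27 to 1 and the F test calls from 25 to 1, while those of all probe sets went from 22.5% to 1.17% and from 18.2% to 2.73%. The median background difference of the 39 genes went from −0.18 to −0.12, with 33 below 0, and their median standard error from 0.06 to 0.13. Cdca3 was the gene that passed (−0.68, standard error 0.10, adjusted p = 1.23e-03). Since the covariate follows the strains, what erythroid content and strain each contribute cannot be told apart. Within strains, over 20 animals that share RNA and array, the erythroid mean correlated at r = 0.45 with the mitosis mean (rho = 0.53, r = 0.45 without the 2 farthest animals) and at r = 0.28 with the replication mean (rho = 0.38, r = 0.27). The osteoblast mean gave r = 0.43 and 0.52 (0.10 and 0.32 without the 2 farthest), the cartilage mean 0.42 and 0.35 (0.16 and 0.18), the B lymphoid mean 0.40 and 0.39 (0.46 and 0.53) and the skeletal muscle mean −0.46 and −0.45 (−0.38 and −0.20). The macrophage, granulocyte precursor and megakaryocyte means lay between −0.01 and 0.28.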

How the data were processed

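The authors extracted femur RNA (Trizol, RNeasy) and hybridized it to Affymetrix Rat Genome arrays in a balanced design. Their deposited values are MAS5 signals, per the labels and the submitters' processing notes, that is intensities on a linear scale; the robust multichip average values and detection calls of their own tests were not used here. Scan dates were not used here, so batches were not tested. Of 31099 probe sets 57 controls were left out; of the other 31042, 20826 carried 1 gene symbol, 436 several and 9780 none, and only those with 1 were named. Here 190 values under 1 were set to 1, log2 was taken, and 18625 probe sets were tested, those whose mean reached the 40th percentile, which is a signal of 169.7. A model of 4 strain means was fitted with limma 3.58.1 in R 4.3.3, with Benjamini-Hochberg adjustment over all tested probe sets. The number of arrays limits the precision.

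The members and gene lists were chosen with earlier results of these data known. All 39 members were described; 15 were given with all 20 signals: Mki67, Top2a, Cdk1, Mcm2, Pcna, any member in the QTL region and those with the smallest adjusted p. From the wider lists up to 5 genes each were named, beside those called against the direction of their list. Animals sharing a replicate number were not paired: of 30 pairs 5 deviated together with r above 0.1, so the replicate block served as an alternative. Other alternatives were quantile normalization, no filter or one at the 60th percentile, a mean-variance trend, 21.7 added before the log, fits of 2 strains alone, a false discovery rate of 5%, any probe set of a gene, the methods' t-test, and each array left out; the segment contrast, the background with 1 segment alone and the erythroid covariate were added after the data were seen. The fit was tested on simulated data. Promoter sequences are from RefSeq (GRCr8). Figures were drawn with matplotlib 3.10.9 in Python 3.11.15.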

Additional observations from a re-analysis of the deposited data

Results flagged for a closer look

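Among 104 groups of 5 animals (15 genes, both classes and their difference, and 8 marker lists, in 4 strains), 6 held an animal whose gap to its nearest neighbour took up an unusually large share of the group's range; chance alone gives this in about 1 of 20 groups. None of the 6 was a cell division gene or class. P replicate 2 was low in the cartilage (−1.57, the next −0.12), osteoblast (−0.18, the next 0.07) and macrophage (−0.36, the next −0.12) means. P.NP replicate 2 was low in the cartilage mean (−0.39, the next 0.12) and NP replicate 2 in the B lymphoid mean (−0.15, the next 0.15). P.NP replicate 3 was high in the granulocyte precursor mean (−0.039, the next −0.45). The part of these cells in the cell division genes of those animals was not tested; without P replicate 2 the background count was 29, without P.NP replicate 2 and without P.NP replicate 3 it was 27 each, and without NP replicate 2 it was 32.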

How the results depend on the processing

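The count of 27 genes lower on the P background ranged from 25 to 31 under the other filters, quantile normalization, the offset, the trend, the false discovery rate of 5% and any probe set, and from 26 to 32 with 1 array left out; with 1 segment alone it was 19 (P segment) and 10 (NP segment), and with the erythroid covariate 1. The F test count of 25 was 19 to 26 with 1 array left out and 1 with the erythroid covariate. For NP.P minus NP the count of 1 became 0 without a filter, with quantile normalization, at a false discovery rate of 5% and in the fit of 2 strains alone. It ranged from 0 to 2 with 1 array left out. It was also 0 by the methods' t-test, which called only 10 of all 18625 probe sets. With the erythroid covariate it was 0 as well, where 0 of all probe sets were called. For P minus NP the count of 2 became 1 without a filter, at the rate of 5%, by the methods' t-test and in the fit of 2 strains alone, 5 with any probe set, and 1 to 3 with 1 array left out. The pooled segment count of 1 became 0 without a filter, with quantile normalization and at the rate of 5%, 3 with the trend, and 0 to 1 with 1 array left out. P.NP minus P and the interaction gave 0 with any 1 array left out. With the replicate block, which no pairing of the animals backs, the background count was 28, with all 27 shared, and the pooled segment count 0. Among the 15 genes given with all 20 signals no called value changed sign; Gins1, called lower on the P background, was at 0.08 (standard error 0.13) with the erythroid covariate. The cause of these changes was not tested beyond what each alternative's own construction shows: fewer arrays, more probe sets tested, or a covariate that follows the strains. With 5 animals per strain and standard errors near 0.06 for the background and 0.08 for 2 strains, the number of arrays limits what could pass.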
